A study of Danio rerio with 8 samples.

Results

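The genes described here are the cyclins, the cyclin-dependent kinases (CDKs) and their direct regulators in livers of zebrafish larvae. They were picked by symbol: numbered cyclins of classes A to L, cyclins T and Y, numbered CDKs, CDK inhibitors, CDC25 phosphatases, the pocket proteins rb1, rbl1 and rbl2, and the E2F and DP factors. The matricellular ccn genes were left out, and the unnumbered cyclin genes ccnc, ccnf, ccnh and ccnk fell outside the rule. Of 74 such symbols among 28599 rows with a gene name, 53 had at least 10 counts summed over the 8 libraries and form the set, and 21 lay under that floor. The symbols also pulled in 8 genes named after a CDK or an inhibitor without being either, such as cdk5rap2 and cdkn2aip; these are kept apart below.

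Each library held total RNA from a pool of 10 livers taken at day 7 after fertilization. There were 4 libraries of wild-type larvae (WT) and 4 of lf:YAP transgenic larvae. YAP is the coactivator through which the Hippo pathway controls growth genes, and by the labels this line has it hyperactive in hepatocytes specifically. No larva received a treatment. The labels name neither the promoter nor the form of yap1 in the transgene. They are silent on clutches too, and p-values here measure the spread between pools, part of which may be technical. In pooled tissue, fewer cells of a type and less RNA per cell cannot be told apart.

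Cyclins are the regulatory partners that switch CDKs on. D cyclins with cdk4 or cdk6 act early in G1 in response to growth signals and phosphorylate the pocket proteins, which frees E2F factors to drive the genes of DNA replication. E and A cyclins with cdk2 carry cells into and through S phase, and B cyclins with cdk1 drive mitosis. Inhibitors of the CIP/KIP and INK4 families oppose these kinases, while cdk7, cdk8, cdk9, cdk12 and cdk13 act mainly on RNA polymerase II. Hepatocytes of a grown liver are largely quiescent and re-enter the cycle when the liver regrows, and cyclin D1 is tied to that step in rodents.

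Libraries held 2668432 to 3797709 counts on named genes, of which the 3 most abundant rows took 50.6% to 57.1%. The 53 genes together received 1162 to 1818 counts per WT library and 1169 to 2302 per lf:YAP library. Coverage was thin: 13 of the genes had under 40 counts over all libraries, and 13 were at 0 in at least 1 library. The yap1 transcript, which checks the labels, stood at 16.9 to 23.2 CPM (counts scaled to library size) in WT and at 624, 1047, 303 and 1352 CPM in lf:YAP replicates 1 to 4. The 5 hepatocyte markers were detected in every library; fabp10a rose and fgb fell in lf:YAP, and tfa, serpina1 and apoa1a did not pass. Their sum of 5764.5 to 6899.6 CPM per WT library and 9437.5 to 13541 CPM per lf:YAP library moved with fabp10a, which averaged 2651 and 8038 CPM.

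The genes that rose in lf:YAP were ccnd1, ccnd2b, ccng1 and rbl1, and the gene that fell was ccnt2a. Calls are at an adjusted p under 0.05 by edgeR's quasi-likelihood test with Benjamini-Hochberg adjustment over all 15832 genes tested. The 4 higher genes are 7.55% of the set, where 7.48% of all genes were called higher, and the single lower gene is 1.89%, where 6.4% of all genes were called lower. A share of higher calls this near the background is no result about the set as a whole. The median log2 fold change of the set was 0.08, beside -0.02 over all genes.

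Groups did not overlap in TMM-scaled levels for 9 of the 53 genes. Of these, 4 had every lf:YAP library above WT, as did 9.63% of all genes. The other 5 had every lf:YAP library below, as did 8.12% of all genes. When libraries were scaled by total counts alone, the median of all genes moved to 0.23 and the calls over all genes split into 1717 higher and 718 lower, in place of 1185 and 1013. Under that scaling the same 4 members were called higher and none lower. Of the 48 genes not called, 19 had a 95% interval within 2-fold either way. For the other 29 the interval reached past 2-fold in at least 1 direction, so a change of that size was neither called nor excluded. At an unadjusted p under 0.05 stood 12 of the 53 genes, beside 27.9% of all genes.

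**Figure D1:**
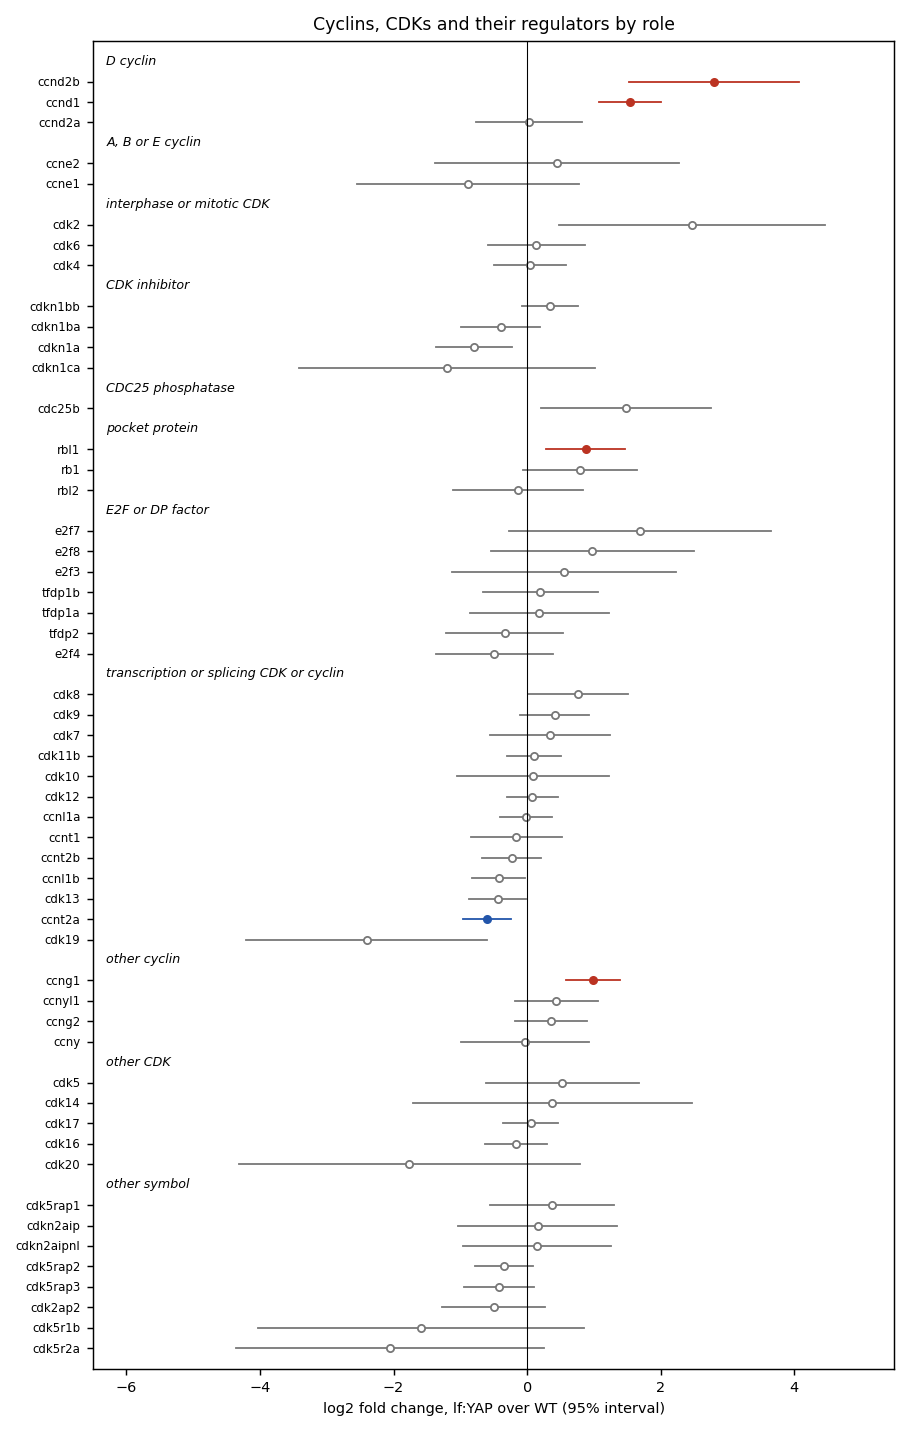
Log2 fold change (lf:YAP relative to WT) of the 53 genes, grouped by role, with 95% intervals from 4 libraries per group. Filled red and blue points were called higher and lower, and open grey points did not pass; the widest interval is that of cdk20, with 10 counts in all.

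Of the D cyclin genes, ccnd1 and ccnd2b rose and ccnd2a did not pass. The level of ccnd1 (cyclin D1) was 8.61, 6.22, 7.44 and 9.37 CPM in WT replicates 1 to 4, and 23.8, 23.4, 17.2 and 28.4 CPM in the lf:YAP replicates. Every lf:YAP library lay above every WT library. The group means were 7.91 ± 1.38 and 23.2 ± 4.61 CPM (SD over 4 libraries), and the log2 fold change was 1.55 ± 0.22 (SE), with a 95% interval of 1.08 to 2.01 (adjusted p = 0.000122). It was called in all 18 alternative settings, at values from 1.43 to 1.82.

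The cyclin D2 gene ccnd2b was barely detected in WT. Its counts were 1, 2, 1 and 2 in WT replicates 1 to 4, and 10, 16, 2 and 24 in the lf:YAP replicates. As levels these are 0.375, 0.732, 0.413 and 0.535 CPM, and 3.55, 4.21, 0.860 and 6.15 CPM. The groups were apart, but lf:YAP replicate 3 sat just above the highest WT library while the other lf:YAP libraries were well clear of it. In the fit, the log2 fold change was 2.80 ± 0.61 (SE), with a 95% interval of 1.53 to 4.07 (adjusted p = 0.0042). The gene was too rare to be tested under the 2 stricter filters on low counts, and was called in the 16 settings that tested it.

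The other cyclin D2 gene, ccnd2a, had 3.00, 2.56, 3.31 and 2.68 CPM in the WT replicates and 2.13, 3.94, 3.01 and 2.56 CPM in the lf:YAP replicates. The WT values lie inside the lf:YAP range. Its log2 fold change was 0.03, with an interval of -0.76 to 0.83 (adjusted p = 0.965). The gene ccnd3 was under the floor, with 4 counts over the WT libraries and 0 over lf:YAP.

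Among the lf:YAP libraries, replicate 4, with the most yap1, was highest for ccnd1 and ccnd2b, and replicate 3, with the least, was lowest for both. For ccnd1, replicate 1 (23.8 CPM) lay above replicate 2 (23.4 CPM), which had more yap1. The other members called higher, ccng1 and rbl1, were highest in replicate 2, and lowest in replicates 3 and 1. Replicate 3 also had the highest sum of 13 exocrine pancreas markers, at 15126 CPM beside 3007 to 3447 CPM in the other lf:YAP libraries. In WT that sum ran from 2667 to 11082 CPM, highest in replicate 4. The part of pancreas tissue in the low values was not tested. In the fit without WT replicate 4 and lf:YAP replicate 3, called the pancreas-rich libraries below, ccnd1, ccnd2b, ccng1 and rbl1 were among the members called higher. WT replicate 3, with a pancreas sum of 7829 CPM, stayed in that fit.

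The kinase partners of the D cyclins did not pass. The gene cdk4 had 10.9, 8.05, 6.61 and 6.69 CPM in the WT replicates and 9.23, 6.83, 6.88 and 9.99 CPM in the lf:YAP replicates, and its log2 fold change of 0.05 had an interval of -0.50 to 0.59. The gene cdk6 had 4.87, 4.39, 7.44 and 3.75 CPM, then 2.49, 5.78, 7.74 and 6.15 CPM, with 0.14 and an interval of -0.59 to 0.86. Groups overlapped for both genes, and neither interval reached 2-fold.

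**Figure D2:**
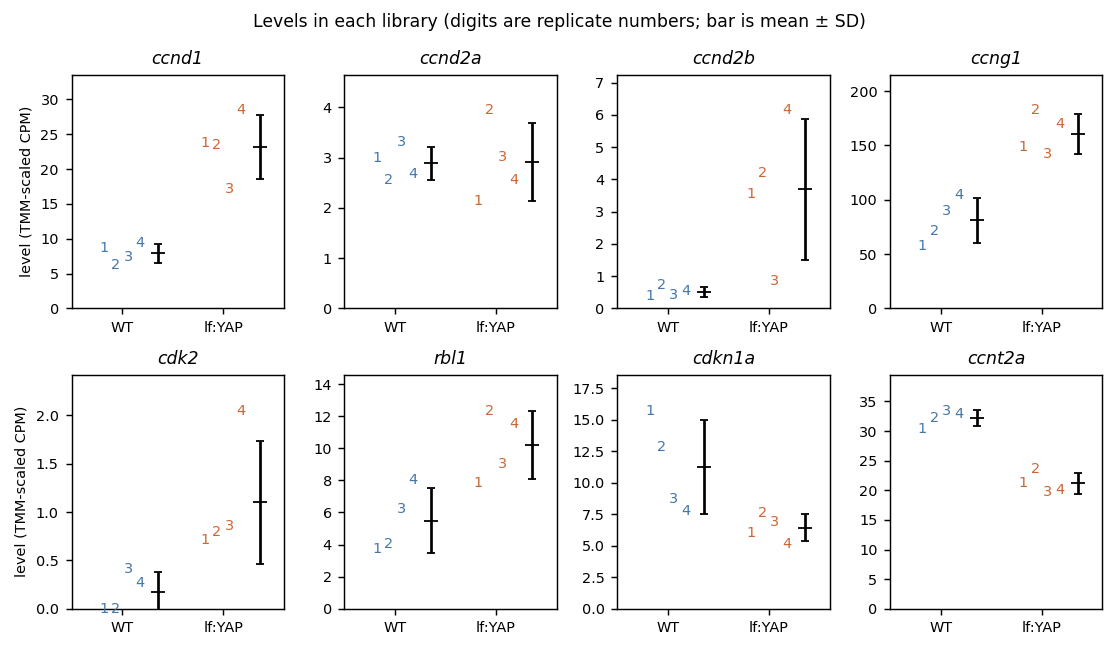
TMM-scaled CPM of 8 genes in each library; digits are replicate numbers, and the bar beside each group is the mean ± SD of 4 libraries. All lf:YAP libraries lie above all WT libraries for ccnd1, ccnd2b, ccng1 and cdk2 and below them for cdkn1a and ccnt2a, while groups overlap for ccnd2a and rbl1.

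The S phase kinase gene cdk2 was scarce, with 0, 0, 1 and 1 counts in the WT replicates and 2, 3, 2 and 8 in the lf:YAP replicates. The groups were apart, at up to 0.413 CPM in WT and 0.710 CPM or more in lf:YAP. The summed counts of 2 and 15 give a ratio of 6.75 (counting interval 1.57 to 60.8). With 2 counts over WT, cdk2 passed the floor mainly through lf:YAP, which favours a ratio above 1. The fitted log2 fold change of 2.47 ± 0.95 (SE) did not pass (adjusted p = 0.0924), nor did it in any of the 16 settings that tested it. The E cyclins, which activate cdk2, had opposite signs: ccne1 was at -0.88 (95% interval -2.55 to 0.78) and ccne2 at 0.45 (-1.38 to 2.27). Together they had 22 counts over the WT libraries and 23 over lf:YAP.

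The mitotic genes were at the edge of detection. The A and B cyclins ccna1, ccna2, ccnb1, ccnb2 and ccnb3 all fell under the floor of 10 counts. Their counts summed to 9 over the WT libraries and to 17 over lf:YAP, and 13 of the 17 came from lf:YAP replicate 4. The mitotic kinase gene cdk1 missed the floor by 1 count, with 0 in every WT library and 2, 3, 1 and 3 counts in the lf:YAP replicates. Set against 3 counts, the floor used for a whole group at 0, the ratio was 2.70, which leaves out the counting error of the lf:YAP counts. In a fit with no filter beyond 1 count, edgeR did not call it (adjusted p = 0.0529). The authors' deposited table gives it a log2 fold change of 2.25 and an adjusted p of 0.0044. That table also has values for cdc25d, cdkn1d and cdkn2a/b, at 0 counts in every library, so it adjusts over other genes. Both results rest on the same 9 counts. Just under the floor with cdk1 were ccnb3 with 8 counts and ccna2 and ccni2 with 7 each. Just inside it were cdk20 and cdkn1ca with 10 and cdk14 with 12.

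The phosphatase gene cdc25b, whose product removes inhibitory phosphates from CDKs, had 1.12, 0, 0.413 and 2.41 CPM in the WT replicates and 2.13, 3.15, 2.15 and 4.61 CPM in the lf:YAP replicates. WT replicate 4 lay within the lf:YAP range and the other WT libraries below it. Its log2 fold change of 1.48 ± 0.61 (SE) did not pass (adjusted p = 0.114). It was 2.50 without WT replicate 4 (adjusted p = 0.031) and 2.62 with both pancreas-rich libraries left out (adjusted p = 0.0144). Both fits drop the WT library that overlapped, and cdc25b passed only in these 2 of 17 settings. With 1 library left out its adjusted p reached 0.325.

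No CDK inhibitor was called by edgeR, DESeq2 or limma-voom, and 1 of 4 tested, cdkn1a, had an unadjusted p under 0.05. This gene encodes p21, which holds cells in G1. It had 15.7, 12.8, 8.68 and 7.76 CPM in the WT replicates and 6.04, 7.62, 6.88 and 5.12 CPM in the lf:YAP replicates. Every lf:YAP library was below every WT library in these TMM-scaled levels, by a narrow gap. Taken over library totals alone, the groups overlapped. Its log2 fold change was -0.80 ± 0.27 (SE; adjusted p = 0.058). It passed in 5 of 18 settings, among them upper-quartile scaling (adjusted p = 0.0364) and the fit without WT replicate 4 (0.0329), and the adjusted p ran from 0.0227 to 0.231 over all settings.

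The p27 genes cdkn1ba and cdkn1bb gave opposite signs, and neither passed. For cdkn1ba the level was 5.62, 10.2, 9.09 and 10.4 CPM in the WT replicates and 9.59, 6.57, 4.30 and 6.40 CPM in the lf:YAP replicates (log2 fold change -0.40, interval -0.99 to 0.20). For cdkn1bb it was 20.6, 24.5, 23.6 and 24.1 CPM, then 20.9, 34.4, 37.4 and 24.8 CPM (0.34, interval -0.08 to 0.76). Groups overlapped for both. The p57 gene cdkn1ca had 10 counts in all, and the INK4 genes cdkn2a/b, cdkn2c and cdkn2d had 0, 3 and 3.

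Among the pocket proteins, which hold E2F factors in check, rbl1 (p107) rose and rb1 and rbl2 did not pass. The level of rbl1 was 3.75, 4.02, 6.20 and 8.03 CPM in the WT replicates and 7.81, 12.4, 9.03 and 11.5 CPM in the lf:YAP replicates. The groups touched, with WT replicate 4 above lf:YAP replicate 1. The log2 fold change was 0.87 ± 0.28 (SE; adjusted p = 0.0466). This call was near the threshold: it was lost without WT replicate 1, 2 or 3 or lf:YAP replicate 2 or 4 (adjusted p from 0.0731 to 0.163), with DESeq2 (0.118), with upper-quartile scaling (0.0686) and under both stricter filters (0.0516 and 0.0518).

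The retinoblastoma gene rb1 had 2.25, 5.12, 8.27 and 6.42 CPM in the WT replicates and 10.3, 10.3, 3.01 and 13.6 CPM in the lf:YAP replicates. Replicate 3 of lf:YAP fell among the WT libraries, and the other lf:YAP libraries lay above all of them. The log2 fold change of 0.79 ± 0.40 (SE; adjusted p = 0.218) became 1.04 without that library (adjusted p = 0.0209). It was 1.14 with both pancreas-rich libraries left out (adjusted p = 0.0245). Both fits drop the lf:YAP library that fell among WT, and rb1 passed only in these 2 of 18 settings. With 1 library left out its adjusted p reached 0.501. The p130 gene rbl2, which prevails in quiescent mammalian cells, had 2.62, 2.20, 1.24 and 3.75 CPM in the WT replicates and 2.84, 2.89, 2.58 and 1.02 CPM in the lf:YAP replicates. Its groups overlapped (log2 fold change -0.14, interval -1.12 to 0.84).

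None of the 7 tested E2F and DP genes was called by edgeR, DESeq2 or limma-voom, and 0 had an unadjusted p under 0.05. Their log2 fold changes ran from -0.49 for e2f4, a repressor E2F, to 1.69 for e2f7. The atypical repressors e2f7 and e2f8 are themselves E2F targets in mammals. They had 3 and 12 counts over the WT libraries and 12 and 27 over lf:YAP, of which replicate 4 held 6 and 16. With 3 counts in WT, e2f7 passed the floor mainly through lf:YAP. The DP partner genes tfdp1a, tfdp1b and tfdp2 were at 0.18, 0.20 and -0.34, each with an interval past 2-fold on 1 side. The activator e2f1 was under the floor, with 0 counts over WT and 4 over lf:YAP.

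Cyclin G1 also rose. The gene ccng1 encodes an atypical cyclin that binds a PP2A phosphatase in mammals. Its level was 57.7, 71.7, 90.1 and 104.4 CPM in the WT replicates and 148.8, 182.4, 141.9 and 169.6 CPM in the lf:YAP replicates, with every lf:YAP library above every WT library. The group means were 81.0 ± 20.5 and 160.7 ± 18.7 CPM (SD over 4 libraries). Its log2 fold change was 0.99 ± 0.20 (SE; adjusted p = 0.00204), and it was called in all 18 settings. With 3063 counts it was the most deeply counted gene of the set. Its paralog ccng2 was at 0.36 (interval -0.19 to 0.90) and the cyclin Y genes ccny and ccnyl1 at -0.03 and 0.44; none of these passed.

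Of the 13 tested CDKs and cyclins of transcription and splicing, 1 fell (7.69%, beside 6.4% of all genes) and 12 did not pass. The 13 lack ccnc, ccnh and ccnk, which are counted among the partners below. Their log2 fold changes were 0.63, -0.06 and -0.47, with groups overlapping, and none passed. The gene that fell was ccnt2a, a cyclin T that activates cdk9 in the elongation factor P-TEFb. It had 30.3, 32.2, 33.5 and 32.9 CPM in the WT replicates and 21.3, 23.7, 19.8 and 19.98 CPM in the lf:YAP replicates. In these TMM-scaled levels the groups were well apart and each was tight. The log2 fold change was -0.60 ± 0.17 (SE), with an interval of -0.96 to -0.25 (adjusted p = 0.0226). The call was lost with total counts alone, at -0.35 (adjusted p = 0.331), which is -0.57 relative to the shifted median of all genes. It was also lost without WT replicate 2 (0.053), WT replicate 3 (0.0562) or lf:YAP replicate 4 (0.0614), and with both pancreas-rich libraries left out (0.0573). The log2 fold change was between -0.60 and -0.56 in those leave-out fits, and why the calls were lost was not tested.

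The rest of P-TEFb did not pass, with cdk9 at 0.41 (interval -0.10 to 0.92) and the cyclin T genes ccnt1 and ccnt2b at -0.16 and -0.23. In this class ccnl1b, cdk13 and cdk19 also had every lf:YAP library below WT in TMM-scaled levels, without passing. With ccnt2a these are 4 of the 13, where 8.12% of all genes did so. Taken over library totals alone, the groups overlapped for ccnl1b, cdk13 and ccnt2a. The gene cdk19, with 16 counts over WT and 3 over lf:YAP, passed the floor mainly through WT. The splicing cyclin gene ccnl1b was at -0.43 (adjusted p = 0.151) and the elongation kinase gene cdk13 at -0.44 (adjusted p = 0.161). Over the alternative settings, ccnl1b ran from -0.51 to -0.16 and cdk13 from -0.54 to -0.17. The Mediator kinase gene cdk19 had 4, 5, 3 and 4 counts in the WT replicates and 1, 2, 0 and 0 in the lf:YAP replicates. Its summed counts give a WT to lf:YAP ratio of 5.93 (counting interval 1.70 to 31.8). The log2 fold change of -2.40 ± 0.86 (SE) did not pass by edgeR (adjusted p = 0.0709) and passed by limma-voom (adjusted p = 0.038).

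Its paralog cdk8, which fills the same place in Mediator, was at 0.76 ± 0.36 (SE) and did not pass (adjusted p = 0.171). For cdk12, which acts in elongation, and cdk11b, which acts in splicing, the intervals were -0.30 to 0.46 and -0.30 to 0.51, well within 2-fold. The other CDKs, cdk5, cdk14, cdk16, cdk17 and cdk20, ran from -1.77 to 0.53. The 8 genes named after a CDK or an inhibitor without being either ran from -2.06 to 0.37. Of these 13 genes, 0 had an unadjusted p under 0.05. In the authors' deposited table, ccnd1 and ccng1 (higher) and ccnt2a and cdk19 (lower) are the members with an adjusted p under 0.05, and ccnd2b is at 0.0784 and rbl1 at 0.0946.

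The set holds 5 paralog pairs whose symbols differ by a final a or b, and their ratio within a library does not depend on library scaling. The log2 ratio of ccnd2b over ccnd2a (counts + 0.5) was -2.50, -1.58, -2.50 and -2.07 in the WT replicates and 0.69, 0.09, -1.58 and 1.22 in the lf:YAP replicates. Replicate 3 of lf:YAP was level with WT replicate 2, and the others were above. The means differed by 2.27 (2-sided exact permutation p = 0.0571, 0.143 adjusted over the 5 pairs).

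For ccnl1b over ccnl1a the log2 ratio was -0.39, -0.57, -0.32 and -0.63, then -0.78, -1.18, -0.82 and -0.64. The groups did not overlap, and the means differed by -0.38 (exact permutation p = 0.0286, the smallest that 4 against 4 allows, and 0.143 adjusted). The ccnt2, cdkn1b and tfdp1 pairs differed by 0.32, 0.71 and -0.14 (exact permutation p of 0.2, 0.2 and 0.886). None passed the adjustment. The comparison was added after the levels were seen, and the counting may have split reads between such paralogs.

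**Figure D3:**
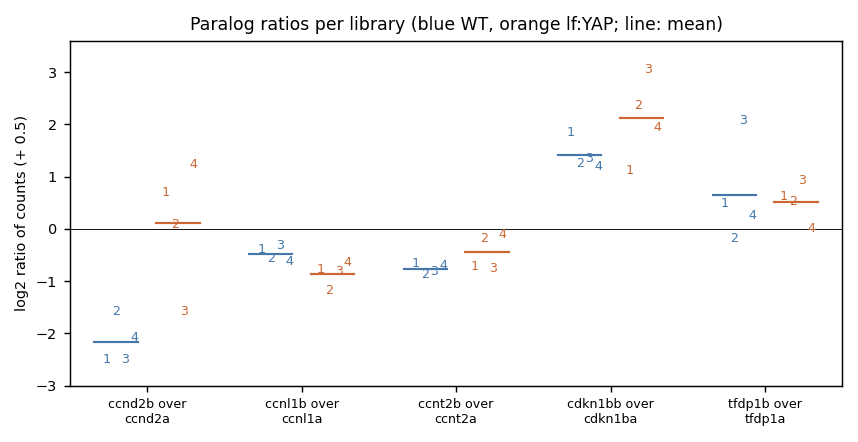
Log2 ratio of counts (+ 0.5) within each library for the 5 paralog pairs; digits are replicate numbers, WT in blue and lf:YAP in orange, with lines at the group means. The ratio of ccnd2b over ccnd2a averages -2.17 in WT and 0.10 in lf:YAP, with lf:YAP replicate 3 among the WT libraries.

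Of the DNA replication genes, many of them E2F targets in mammals, 18 of 49 tested rose, 1 fell and 30 did not pass, from a list of 59. The share called higher was 36.7%, where 7.48% of all genes were, and the median log2 fold change was 1.54. Among the 49, 10 had under 5 counts over the WT libraries and passed the floor mainly through lf:YAP, so these figures describe the genes detected and not the whole list. The summed level of the list was 86.9, 76.8, 86.8 and 91.8 CPM in the WT replicates and 156, 173, 122 and 314 CPM in the lf:YAP replicates. All lf:YAP libraries were above WT, with replicate 4 far above the rest.

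The chromatin assembly gene chaf1a had 3, 1, 4 and 4 counts in the WT replicates and 17, 28, 11 and 62 in the lf:YAP replicates, and rose by 3.02 ± 0.48 on the log2 scale (SE; adjusted p = 0.000309). The replicative helicase genes mcm5 (2.51 ± 0.41), mcm2 (2.83 ± 0.59) and mcm3 (3.27 ± 0.71) rose, from 5 or fewer counts in each WT library. The maintenance methyltransferase gene dnmt1 rose by 1.83 ± 0.46, a call lost without lf:YAP replicate 4. The thymidine kinase gene tk1, named after its values were seen, had 0 counts over WT and 3, 5, 2 and 6 in the lf:YAP replicates. With WT set to 3 counts over the group, the ratio was 4.80, again without the counting error of the lf:YAP counts.

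The gene that fell was dhfr (-1.19 ± 0.39, adjusted p = 0.0452), a folate enzyme; its call was lost without WT replicate 2 or 4 or lf:YAP replicate 1 or 2, and with both pancreas-rich libraries left out. The count of 18 became 7 without lf:YAP replicate 4, 11 without either WT replicate 3 or lf:YAP replicate 2, and 12 when WT replicate 1 or 2 was left out. It was 12 with DESeq2, which called 918 of all 15832 genes higher. Under the filter that uses the groups it was 4 of 9 tested, beside 929 of 8369 genes. Over all genes, 840 were called higher without lf:YAP replicate 4, in place of 1185.

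Of the genes of mitosis, 3 of 46 tested rose and 43 did not pass, from a list of 62. The share of 6.52% is near the 7.48% of all genes, and none was called lower by edgeR, DESeq2 or limma-voom. An unadjusted p under 0.05 was held by 21 of the 46, a larger share than the 27.9% of all genes. The median log2 fold change was 1.56. However, 20 of the 46 had under 5 counts over the WT libraries and passed the floor mainly through lf:YAP. The median and that share therefore describe the genes detected and not the list. The condensin gene smc4 had 2, 3, 2 and 2 counts in the WT replicates and 31, 34, 7 and 83 in the lf:YAP replicates (3.80 ± 0.59). The condensin gene ncapd2 (2.61 ± 0.70) and the chromatin gene hmgb2a (0.83 ± 0.21) also rose, and both calls were lost without lf:YAP replicate 4. Without lf:YAP replicate 3, 10 of the 46 were called higher, beside 1442 of all 15832 genes. Without lf:YAP replicate 1 these were 5 and 1011. The summed level was 90.9 to 101 CPM in WT and 136, 166, 126 and 303 CPM in the lf:YAP replicates, again highest in replicate 4.

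**Figure D4:**
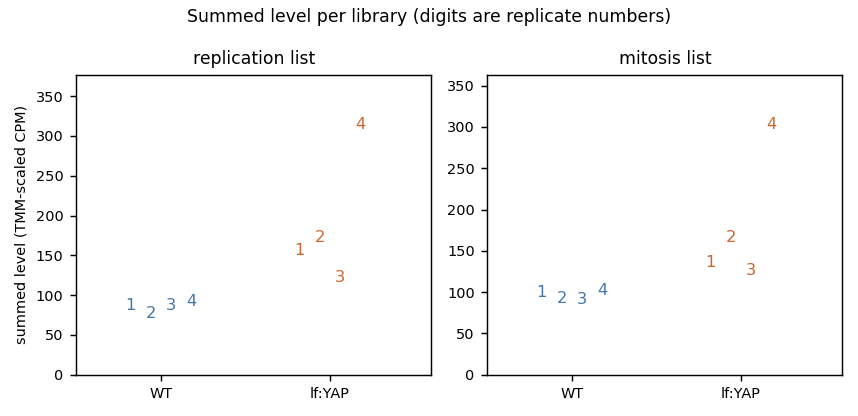
Summed level (TMM-scaled CPM) of the replication and mitosis lists in each library; digits are replicate numbers. WT libraries sit between 76.8 and 91.8 CPM for replication and between 90.9 and 101 CPM for mitosis, and lf:YAP replicate 4 reaches 314 and 303 CPM.

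Of 30 tested genes of the ubiquitin machinery that destroys cyclins and inhibitors, 3 rose (10%, beside 7.48% of all genes). None was called lower by edgeR, DESeq2 or limma-voom. An unadjusted p under 0.05 was held by 6 of the 30, a smaller share than the 27.9% of all genes. The F-box gene fbxw7, whose product targets cyclin E, had 17.6, 12.4, 11.2 and 15.0 CPM in the WT replicates and 24.9, 31.0, 19.8 and 35.9 CPM in the lf:YAP replicates, with no overlap. Its log2 fold change was 0.99 ± 0.22 (SE; adjusted p = 0.00464), and it was called in all 18 settings. The ubiquitin-conjugating enzyme genes cdc34a (0.91 ± 0.26) and ube2c (1.08 ± 0.32) rose too. Both of those calls were lost with DESeq2 and without WT replicate 1 or 2 or lf:YAP replicate 1 or 4, and that of ube2c also without WT replicate 3 or 4 or lf:YAP replicate 3.

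Of 19 tested partners of the transcription CDKs, 1 rose and 2 fell (5.26% and 10.5%, beside 7.48% and 6.4% of all genes). The gene larp7, whose product is part of the 7SK particle that holds P-TEFb inactive, rose (1.25 ± 0.39). Its call held without WT replicate 4 and was lost without any other single library. In the same list hexim1 was at 0.30 and did not pass (adjusted p = 0.461 by edgeR). The super elongation complex gene aff4 (-0.72 ± 0.17) and polr2a, the large subunit of RNA polymerase II (-0.70 ± 0.19), fell, and both calls were lost with total counts alone. The polr2a call was also lost without WT replicate 1, 2 or 3 or lf:YAP replicate 2 or 4.

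In the MYC network, which lies upstream of D cyclins in mammals, 1 of 11 tested genes fell (9.09%, beside 6.4% of all genes). None was called higher by edgeR, DESeq2 or limma-voom. An unadjusted p under 0.05 was held by 2 of the 11, beside 27.9% of all genes. The gene that fell, mycb, had 139, 95, 45 and 46 counts in the WT replicates and 19, 14, 29 and 18 in the lf:YAP replicates (-2.16 ± 0.56, adjusted p = 0.0392). WT spread widely, and the call was lost without WT replicate 2 or lf:YAP replicate 1, 2 or 4.

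**Figure D5:**
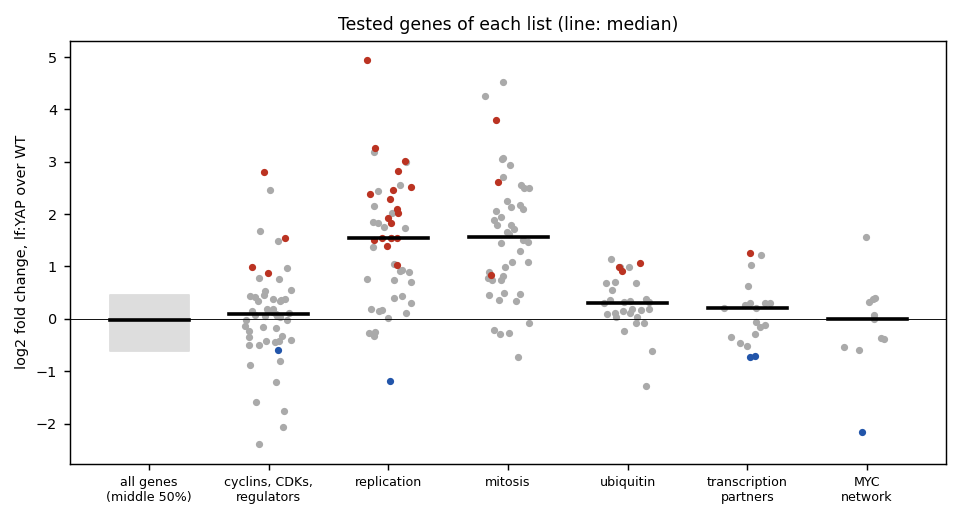
Log2 fold change (lf:YAP relative to WT) of the tested genes of each list, with a line at the median; red and blue points were called higher and lower, and the grey box is the middle 50% of all genes. The cyclins, CDKs and regulators have a median of 0.08, the replication list of 1.54 and the mitosis list of 1.56; in the last, 20 of 46 genes, and in the replication list 10 of 49, passed the count floor mainly through lf:YAP and so had to lie above 0.

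Markers of other cell types differed between groups for some lists. The summed level of 10 leukocyte markers was 7.12 to 11.5 CPM in WT and 13.7 to 27.4 CPM in lf:YAP, highest in replicate 4. Of the 8 leukocyte genes tested, mpeg1.1 rose and the others did not pass, and none of the 10 was at 0 in all libraries. The 6 biliary markers summed to 1391 to 1520 CPM in WT and 2886 to 5419 CPM in lf:YAP, also highest in replicate 4, and 4 of the 6 rose. That sum was mostly krt8, anxa4 and krt18a.1, which averaged 744, 404 and 264 CPM in WT. These and sox9b rose, while epcam (adjusted p = 0.0718 by edgeR) and alcama (0.625) did not pass. The part of leukocytes and biliary cells in the cyclin and replication values was not tested. The erythroid sum, for another dividing lineage, was 1.46 to 8.56 CPM in WT and 3.33 to 7.62 CPM in lf:YAP, and 4 globin genes stood at 0 in every library. Endothelial markers summed to 107 to 176 CPM in WT and 104 to 175 CPM in lf:YAP. Intestine markers ran the other way: of 6, 4 fell, with sums of 131 to 612 CPM in WT and 36.01 to 250 CPM in lf:YAP. Of 7 skeletal muscle markers, myhz1.3 fell, with sums of 451 to 764 CPM in WT and 410, 281, 866 and 123 CPM in the lf:YAP replicates. The part of these tissues in the values was not tested either. Of the 53 genes, lf:YAP replicate 4 was the highest of its group for 21, replicate 2 for 13, replicate 3 for 11 and replicate 1 for 8. The same count over all genes was not made, so this is no result about the set.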

How the data were processed

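Total RNA of 8 liver pools (4 WT, 4 lf:YAP) was sequenced after a stranded kit for small inputs. The submitters' processing notes name the build danRer10 and the tools HISAT2 2.1.0, featureCounts 1.6.0, cutadapt 1.16 and limma 3.40.6, without their roles. Neither an annotation nor a strand setting is stated, and reads of overlapping, antisense or near-identical genes may be mixed. The authors deposited raw counts, as whole numbers. The authors' CPM columns are scaled to each column's total and were not used for tests. The authors' deposited log2 fold change, mean log2 expression and p-value columns served only for comparison. Genes are known by symbol alone.

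Of 35117 rows, the 6518 without a gene name (0.657% to 2.55% of counts) entered neither library sizes nor tests. Genes with at least 10 counts over the 8 libraries were kept, a floor blind to the groups, so that every member was tested. Counts were fitted in edgeR 4.0.16 (R 4.3.3) with TMM factors and the robust quasi-likelihood F-test, 2-sided, on group alone; the script was tested on simulated data. Levels are CPM after TMM scaling, and SE was taken as the log2 fold change over the root of its F statistic. Counting intervals (95%, exact binomial) cover counting error only, and the floor of 3 counts over a group covers only that of the group at 0. Paralog ratios used counts + 0.5.

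Alternatives were DESeq2 1.42.0, limma-voom (limma 3.58.1), 2 scalings, 3 filters, rows summed per symbol, a replicate block, each library left out, and both pancreas-rich libraries left out. The members, the lists and the rule for named genes were chosen with earlier results of these data known. By that rule, values per library are given for called members, for core G1/S and mitotic genes with at least 40 counts, and for uncalled members past 2-fold without overlap; lists are named by up to 5 called genes of smallest p. Other genes were named after their values were seen. Of the pathway lists drawn up, 1 is not reported here.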

Additional observations from a re-analysis of the deposited data

Results flagged for a closer look

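Over 36 groups of 4 libraries, each gene's or list's highest and lowest library were compared with the nearest of the others, as a share of the range of the group. In 2 of the 36 a single library stood far from the rest, which is about the 1 in 20 that chance gives, and both rest on few counts. For cdk2, lf:YAP replicate 4 was highest, with a gap of 0.888 of the range, at 8 counts beside 2 or 3 in the other lf:YAP libraries. For rbl2, lf:YAP replicate 4 was lowest, with a gap of 0.833 of the range, at 4 counts beside 6 to 11.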

How the results depend on the processing

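The genes ccnd1, ccng1 and ccnd2b were called in every setting that tested them, rbl1 in 9 of 18 and ccnt2a in 13 of 18, and no member's call reversed. Members called higher numbered 2 of 27 tested with filterByExpr, and 2 of 43 with 1 CPM in at least 4 libraries (neither tested ccnd2b). Of 53, they were 3 to 5 with 1 library left out, and 6 with both pancreas-rich libraries left out. Members called lower numbered 2 with filterByExpr, no filter beyond 1 count, upper-quartile scaling and limma-voom, 0 with total counts alone, and 0 to 2 with 1 library left out. All genes called ran from 806 to 1442 higher and from 598 to 1431 lower with 1 library left out. Called higher and lower were 929 and 875 of 8369 genes with filterByExpr, and 1099 and 1020 of 12875 with 1 CPM. With no filter they were 1410 and 1445 of 22936. Of 15832 genes, they were 1717 and 718 with total counts alone and 995 and 1258 with upper-quartile scaling. DESeq2 called 918 and 993, and limma-voom 1109 and 1168. With both pancreas-rich libraries left out, 1328 and 1322 were called. Replication genes called higher were 4 of 9 tested with filterByExpr and 7 to 20 of 49 with 1 library left out. Called lower were 0 with total counts alone, DESeq2, limma-voom and both pancreas-rich libraries left out, and 0 to 1 with 1 library left out. Mitosis genes called higher were 1 of 5 tested with filterByExpr, 13 of 59 with no filter and 9 of 46 with total counts alone. With 1 library left out they were 1 to 10 of 46. Ubiquitin genes called higher, of 30, were 5 with total counts alone, 1 with DESeq2, and 1 to 3 with 1 library left out. Transcription partners called higher, of 19, were 2 with total counts alone and 0 with upper-quartile scaling and DESeq2. Called lower were 0 with total counts alone. With 1 library left out, 0 to 1 were called higher and 1 to 2 lower. MYC genes called lower were 2 of 9 tested with filterByExpr, 2 of 10 with 1 CPM, 2 of 12 with no filter and 2 of 11 with upper-quartile scaling. With 1 library left out, 0 to 2 were called lower and 0 to 1 higher. Filters change which genes are tested and fits without a library have fewer samples; the cause was not tested otherwise. Over single members and settings, 890 values kept their side of the threshold, 14 lost a call and 10 gained one.

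Equal replicate numbers did not pair the libraries: deviations from the group means correlated at -0.031, -0.01, 0.038 and -0.054. With the replicate block, 1126 genes were called higher and 1046 lower, and the same 4 members were higher and ccnt2a lower.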
